A study of Drosophila melanogaster with 15 samples.

Results

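The proteasome subunit genes were measured in the central nervous system of Drosophila melanogaster larvae in which neurons carried RNAi against 1 subunit of the mitochondrial oxidative phosphorylation chain. They were chosen by name: every probe set, a group of short probes for 1 transcript, whose annotated symbol starts with Prosalpha, Prosbeta, Rpn or Rpt and a digit. The rule gave 41 of 18769 probe sets, standing for 42 genes, since 1 probe set is annotated to both Prosalpha1 and its paralog Prosalpha1R. Of the 41, 13 read subunits of the core particle (7 alpha, 6 beta), 14 subunits of the regulatory particle (7 of the base, 7 of the lid) and 14 paralogs. Prosbeta1, Rpn9, Rpn10, Rpt1, Rpt6 and Rpt6R carry symbols of the same form but no listed probe set, and were not analysed here.

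There were 4 RNAi groups and a control group, each of 3 arrays. The RNAi lines were number 33910 against ND-75 (complex I), 109542 against UQCR-14 (complex III), 105769 against COX5B (complex IV) and 107826 against ATPsynCf6 (complex V, the ATP synthase), so each target was tested with 1 line. All 4 were driven by nSyb-Gal4, which acts in neurons, while the control larvae carried nSyb-Gal4 and no RNAi transgene. RNA came from the whole central nervous system, with its glia and dividing neuroblasts, of 15 wandering third-instar larvae a sample raised at 25 °C, and 10 ng of RNA were amplified. In such bulk RNA, fewer cells of a type and less RNA per cell cannot be told apart. The transcripts of all 4 targets missed the threshold in all 3 fits in the group meant to lower them, so the groups are named by their labels only. Signals of ND-75 were 194 to 305 in its own RNAi group and 304 to 387 in control, those of UQCR-14 6321 to 30487 and 6616 to 20967, those of COX5B 989 to 7716 and 2725 to 8404, and those of ATPsynCF6 2828 to 3585 and 3003 to 3579.

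The proteasome is the cell's main protease for proteins tagged with ubiquitin. Its barrel-shaped core particle has outer rings of alpha subunits, which form a gate, and inner rings of beta subunits, of which Prosbeta1, Prosbeta2 and Prosbeta5 carry the cutting sites. The regulatory particle caps the barrel: its base holds the Rpt ATPases, which unfold the substrate, and large scaffolds, and its lid holds Rpn11, which strips the ubiquitin chain. Neurons rely on it for protein turnover at the synapse, and developing neurons for pruning. Its genes are usually controlled together.

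There were 5 arrays that stood apart from the rest. They are control 3, ND-75 RNAi 3, UQCR-14 RNAi 3 and COX5B RNAi 1 and 3. The upper quartile of the signals was 169.8 to 485 on these and 566 to 653 on the other 10. The calls are thus given from 3 fits: all 15 arrays alike, all 15 with weights that limma estimates from each array's scatter, and the 10 arrays. The change of a single gene is over the 10 arrays unless another fit is named. In the last, COX5B RNAi has 1 array, assumed to vary like the others, and control 2. Array COX5B RNAi 1 had a ratio of 3' to 5' actin probes of 70.1, ND-75 RNAi 2 of 37.4 and ND-75 RNAi 3 of 20.1, against 2.94 to 5.03 on the other 12, a measure of RNA integrity and amplification. Changes are differences of log2(signal + 16), and a gene is called at an adjusted p under 0.05 over 10340 probe sets.

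All 27 core and regulatory subunits lay above the array's own median signal on all 15 arrays. The highest signal of a subunit on the 10 arrays was 1.19 times the lowest for Prosalpha3 and 2.30 times for Prosalpha6, with a median of 1.49 over the 27. Within the 3 ATPsynCf6 RNAi arrays this ratio ran from 1.03 (Prosalpha7) to 1.25 (Rpt4). The subunits thus stayed in a narrow range across the 5 groups once the 5 arrays were set aside. Array ND-75 RNAi 2 was the highest of the 10 for 15 of the 27 subunits, 11 of them regulatory, and control 1 for 9; COX5B RNAi 2 was the lowest for 13. Without ND-75 RNAi 2 the ratio over 9 arrays was at most 1.66.

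The paralogs gave a different picture. Of the 14, 12 did not pass the filter on low signals: Prosalpha3T, Prosalpha4T1, Prosalpha4T2, Prosalpha6T, Prosbeta2R1, Prosbeta2R2, Prosbeta4R1, Prosbeta4R2, Prosbeta5R1, Prosbeta5R2, Rpn12R and Rpt4R. Their median signals ran from 1.02 to 13.7, and 10 of them exceeded the array median on 0 arrays and the other 2 on 1 array. Paralogs with a T in their name are known as testis-specific subunits. Of the 14 testis genes measured, 7 (aly, sa, nht, dj, Mst84Da, fzo and ocn) also exceeded the median on 0 arrays. The others were not alike: Mst87F did so on 2, bol on 4, can and mia on 13, betaTub85D on 14, and bam and twe on 15. Only Rpt3R, with signals of 32.6 to 343, and Rpn13R, with 3.30 to 120.5, passed the filter, on 15 and 12 arrays above the median. Together with the 27 they make 29 members tested.

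**Figure D1:**
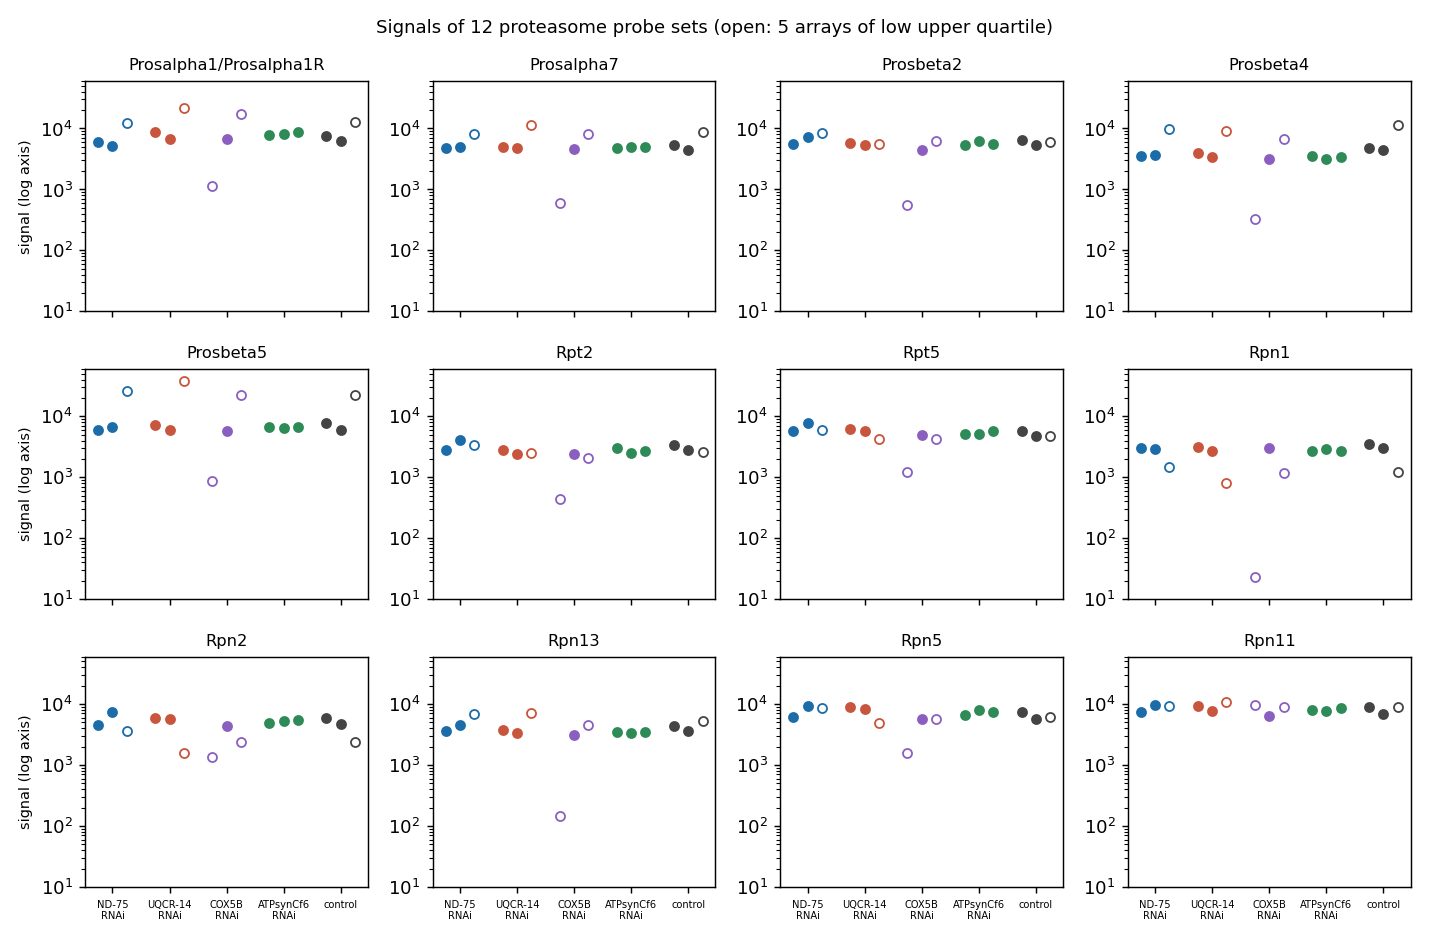
Signals (log axis) of 12 proteasome probe sets on each of the 15 arrays, by group. Filled points are the 10 arrays, open points the 5 of low upper quartile. The filled points lie close together in every panel. The open points of the arrays numbered 3 lie high in Prosalpha7, Prosbeta4 and Prosbeta5 and low in Rpn1 and Rpn2, and COX5B RNAi 1 (the leftmost of its group) lies low in every panel but that of Rpn11.

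The signals below are for arrays 1, 2 and 3 of a group in that order. In the core particle, the outer-ring subunit Prosalpha7 had signals of 4734, 4906 and 8027 under ND-75 RNAi, 4972, 4784 and 11236 under UQCR-14 RNAi, 594, 4605 and 8227 under COX5B RNAi, 4836, 4974 and 4910.1 under ATPsynCf6 RNAi, and 5328, 4408 and 8638 in control larvae. Every RNAi group overlapped control, and the arrays numbered 3 were high in 4 groups but not under ATPsynCf6 RNAi. Its change over the 10 arrays was -0.01 under ND-75 RNAi, 0.01 under UQCR-14 RNAi, -0.07 under COX5B RNAi and 0.02 under ATPsynCf6 RNAi. The probe set shared by Prosalpha1 and Prosalpha1R, also of the outer ring, read 6109, 5194 and 12112 under ND-75 RNAi, 8611, 6788 and 21299.8 under UQCR-14 RNAi, 1152, 6715 and 17242 under COX5B RNAi, 7743, 8018 and 8707 under ATPsynCf6 RNAi, and 7671, 6227 and 12953 in control larvae. It had the highest change of all members under ATPsynCf6 RNAi (0.19, adjusted p = 0.62) and COX5B RNAi (0.16) with array weights, neither called.

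Prosbeta5, which carries the chymotrypsin-like site, read 5841, 6613 and 26045 under ND-75 RNAi, 7164, 5942 and 37752 under UQCR-14 RNAi, 861, 5660.4 and 22621 under COX5B RNAi, 6617, 6378 and 6736 under ATPsynCf6 RNAi, and 7871, 6041 and 22033 in control larvae. The 4 arrays numbered 3 outside ATPsynCf6 RNAi were far above their group's other arrays, in control as in RNAi larvae. The change on the 10 arrays was between -0.28 (COX5B RNAi) and -0.07 (ATPsynCf6 RNAi) and was not called. Prosbeta2, with the trypsin-like site, read 5504, 7268 and 8362 under ND-75 RNAi, 5866, 5272 and 5533 under UQCR-14 RNAi, 555, 4502 and 6349 under COX5B RNAi, 5372, 6259.9 and 5544 under ATPsynCf6 RNAi, and 6543, 5429 and 6039 in control larvae. Each RNAi group overlapped control here too, and the changes over the 10 arrays ran from -0.40 (COX5B RNAi) to 0.09 (ND-75 RNAi).

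Prosbeta4, an inner-ring subunit without a cutting site, was the 1 member called in any of the comparisons of the 3 fits. It read 3487, 3623 and 9769 under ND-75 RNAi, 3952, 3394 and 9164 under UQCR-14 RNAi, 333, 3138 and 6801 under COX5B RNAi, 3477, 3204 and 3367 under ATPsynCf6 RNAi, and 4839, 4367 and 11323 in control larvae. On each of the 8 RNAi arrays among the 10 it was below both control arrays, and all 3 ATPsynCf6 RNAi arrays were below all 3 control arrays. For the mean of the 4 RNAi groups the change was -0.43 (SE 0.10, 95% interval -0.65 to -0.20, limma adjusted p = 0.0475) over the 10 arrays, -0.41 (SE 0.17, adjusted p = 0.208) with array weights and -0.80 (adjusted p = 1.00) over 15 arrays. Group by group over the 10 arrays it was -0.37 (adjusted p = 0.223) under ND-75 RNAi, -0.33 (0.175) under UQCR-14 RNAi, -0.55 (0.132) under COX5B RNAi and -0.46 (0.0593) under ATPsynCf6 RNAi.

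The Prosbeta4 call rested on a narrow margin. Of 9 fits of the 10 arrays that left out 1 array each (COX5B RNAi 2 is its group's only one), 2 kept the call, those without ND-75 RNAi 1 or 2, and the change ran from -0.50 to -0.35. It was lost without UQCR-14 RNAi 1 (adjusted p = 0.0643) or 2 (0.0946), ATPsynCf6 RNAi 1 (0.0678), 2 (0.0891) or 3 (0.0945), or control 1 (0.373) or 2 (0.161). These fits were added after the data had been seen. In same-numbered pairs, RNAi minus control, the log2 differences of Prosbeta4 were -0.47, -0.27 and -0.21 under ND-75 RNAi, -0.29, -0.36 and -0.30 under UQCR-14 RNAi and -3.80, -0.47 and -0.73 under COX5B RNAi, all 9 below 0. The same 3 control arrays serve all 3 groups, so the 9 differences are not independent. The -3.80 is that of COX5B RNAi 1.

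In the base, the ATPase Rpt2, whose tail helps to open the core's gate in yeast, read 2763, 4148 and 3432 under ND-75 RNAi, 2775, 2418 and 2474 under UQCR-14 RNAi, 448, 2442 and 2099 under COX5B RNAi, 2967, 2473 and 2741 under ATPsynCf6 RNAi, and 3425, 2774 and 2610.1 in control larvae. The 3 COX5B RNAi arrays were below all controls, and the other groups overlapped them. Rpt5, another of the ATPases, read 5662, 7691 and 5995 under ND-75 RNAi, 6171, 5757 and 4309.6 under UQCR-14 RNAi, 1216, 5017 and 4202 under COX5B RNAi, 5048, 5169 and 5808 under ATPsynCf6 RNAi, and 5715, 4816 and 4676 in control larvae. It had the highest change of the members under ND-75 RNAi with array weights (0.22, adjusted p = 0.776), where ND-75 RNAi 2 was its highest array.

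The large scaffolds Rpn1 and Rpn2 behaved unlike the core on the arrays that stood apart. Rpn1, a docking site for ubiquitin shuttles, read 3066, 2947 and 1451 under ND-75 RNAi, 3129.6, 2667 and 819 under UQCR-14 RNAi, 23.4, 2965 and 1164 under COX5B RNAi, 2679, 2859 and 2688 under ATPsynCf6 RNAi, and 3568, 2967 and 1241 in control larvae. Rpn2, which holds Rpn13, read 4534, 7492 and 3632 under ND-75 RNAi, 5887, 5583 and 1591 under UQCR-14 RNAi, 1331, 4381 and 2393 under COX5B RNAi, 4887, 5307 and 5471 under ATPsynCf6 RNAi, and 5849, 4722 and 2354 in control larvae. Both were low on the 4 arrays numbered 3, where Prosbeta5 was high. In COX5B RNAi with array weights Rpn1 had the lowest change of the members (-0.55, adjusted p = 1.00), and it stood at -0.13 over the 10 arrays and -2.20 (adjusted p = 0.541) over 15.

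Rpn13, a ubiquitin receptor of the base, read 3610.1, 4533 and 6759.6 under ND-75 RNAi, 3682, 3296 and 7045 under UQCR-14 RNAi, 145, 3062 and 4592 under COX5B RNAi, 3438, 3346 and 3478 under ATPsynCf6 RNAi, and 4394, 3613 and 5275 in control larvae. The ATPsynCf6 RNAi arrays lay below all 3 controls, with a change of -0.22 (adjusted p = 0.501) over the 10 arrays. Its paralog Rpn13R read 53.7, 63.9 and 68.2 under ND-75 RNAi, 30.5, 68.5 and 9.42 under UQCR-14 RNAi, 3.30, 57.3 and 120.5 under COX5B RNAi, 46.8, 62.5 and 46.5 under ATPsynCf6 RNAi, and 70.2, 104 and 54.6 in control larvae. With array weights Rpn13R had the lowest change under ND-75 RNAi (-0.41), UQCR-14 RNAi (-0.50) and ATPsynCf6 RNAi (-0.52, adjusted p = 0.137), at signals near the array median and with none called.

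In the lid, the deubiquitinase Rpn11 read 7445, 9768 and 9307 under ND-75 RNAi, 9333, 7604 and 10604 under UQCR-14 RNAi, 9813, 6393 and 8793 under COX5B RNAi, 7937, 7797 and 8504 under ATPsynCf6 RNAi, and 9088, 6892 and 8966 in control larvae. It was the steadiest subunit over all 15 arrays, also on COX5B RNAi 1. Rpn5, a lid scaffold, read 6202, 9303 and 8644 under ND-75 RNAi, 8782, 8158 and 4816 under UQCR-14 RNAi, 1589.7, 5643 and 5646 under COX5B RNAi, 6641, 7891 and 7419 under ATPsynCf6 RNAi, and 7502, 5624 and 6030.3 in control larvae. Both UQCR-14 RNAi arrays among the 10 exceeded every control, the third did not, and the change with array weights, the highest of the members, was 0.30 (adjusted p = 0.444). Rpn8, the partner of Rpn11 in the lid, was chosen after its values were seen: it read 2505, 2093 and 2083 under ND-75 RNAi, 2490.2, 2289 and 1696 under UQCR-14 RNAi, 1288, 2309 and 1802 under COX5B RNAi, 2435, 2189.6 and 2457 under ATPsynCf6 RNAi, and 3111, 2624 and 2433 in control larvae. Its pooled change was -0.29 (adjusted p = 0.205) over the 10 arrays.

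Over all 15 arrays none of the 29 members was called. The share of all 10340 probe sets called was 0.0677% under ND-75 RNAi, 0.0484% under UQCR-14 RNAi, 0% under COX5B RNAi, 0.0193% under ATPsynCf6 RNAi, 0.0484% for the mean of the 4 RNAi groups and 0.106% in an F test of differences among the 4. At an unadjusted p under 0.05, 1 member passed under COX5B RNAi and 0 in each of the other 5 tests. Of all 10340 probe sets 578 passed under COX5B RNAi and 134 to 287 in the others. With array weights again 0 members were called, where 1.57% of all probe sets were called under ND-75 RNAi, 4.47% under UQCR-14 RNAi, 0.203% under COX5B RNAi, 6.91% under ATPsynCf6 RNAi, 3.99% for the mean and 2.72% in the F test. Members at an unadjusted p under 0.05 then numbered 3 under ATPsynCf6 RNAi, 2 for the mean and 0 elsewhere. Of all 10340 probe sets 2067 passed under ATPsynCf6 RNAi, 1725 for the mean and 534 to 1859 in the other tests.

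On the 10 arrays, by contrast, the count was 0 of 29 in each RNAi group, 1 for the mean of the 4 (Prosbeta4) and 0 in the F test. All probe sets were called at 1.69% under ND-75 RNAi, 4.59% under UQCR-14 RNAi, 1.24% under COX5B RNAi, 3.22% under ATPsynCf6 RNAi, 3.12% for the mean and 4.4% in the F test. The 1 member of 29 is 3.45%, near the 3.12% of all probe sets. At an unadjusted p under 0.05 there were 3, 2 and 3 members in the ND-75, UQCR-14 and ATPsynCf6 RNAi groups. For the mean there were 3, and in the F test 1. Of all 10340 probe sets 1454, 2180 and 1540 passed in these groups, 1697 for the mean and 2224 in the F test. The COX5B RNAi group, with 1 array, is left out of the group counts.

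Same-numbered arrays of ND-75, UQCR-14 or COX5B RNAi and of control deviated together from their group means. These were also compared in pairs, with the number as a block in limma. Deviations within a group sum to 0, so the shared shift of the arrays numbered 3 also moves arrays 1 and 2 together. Whether arrays 1 and 2 are true pairs is thus not shown. Again 0 of 29 members were called. Over the 12 arrays 0.058% of all probe sets were called under ND-75 RNAi, 0.0193% under UQCR-14 RNAi, 0% under COX5B RNAi and 0.0193% for the mean of the 3, and without COX5B RNAi 1 these shares were 0.261%, 0.3%, 0.0484% and 0.184%. Members at an unadjusted p under 0.05 numbered 0, 0, 2 and 0 over the 12 arrays and 0, 1, 1 and 2 without COX5B RNAi 1. The share of all probe sets at that p was not computed for the block fits. Without that array the blocked change of Prosbeta4 for the mean of the 3 groups was -0.42 (SE 0.15, adjusted p = 0.495).

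Below control in every pair were 6 members under ND-75 RNAi, where 17% of all probe sets were, 11 under UQCR-14 RNAi (23.8%) and 18 under COX5B RNAi (23%), the last with COX5B RNAi 1 included. Over all 9 pairs, which share 3 control arrays, these were Prosbeta4 and Rpn8, 2 of 29, beside 3.51% of all probe sets. Above control in every pair were 1, 3 and 0 members, beside 16.3%, 14.3% and 14.7% of all probe sets.

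**Figure D2:**
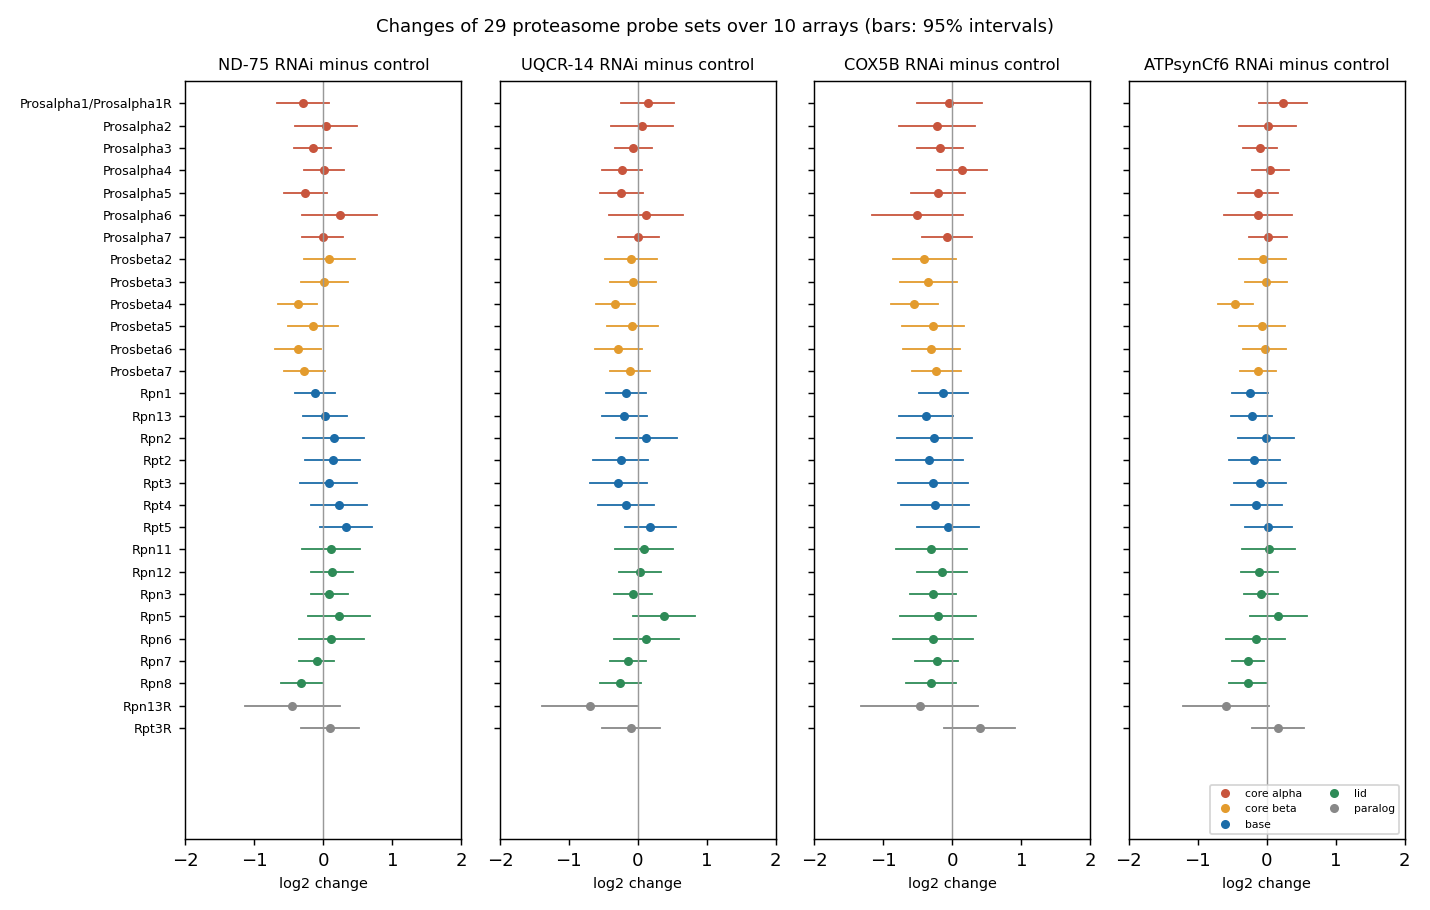
Change of each of the 29 members, RNAi minus control on the log2 scale, over the 10 arrays, with 95% intervals as bars and colours for the part of the proteasome. Nearly all bars cross 0, and all but a few stay within 1 on either side of it.

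The intervals say how large a change could have been missed. Over the 10 arrays the 95% interval lay within 1 log2 unit of 0 for 28 of the 29 members under ND-75 RNAi, UQCR-14 RNAi and ATPsynCf6 RNAi and for 27 under COX5B RNAi. With array weights these counts were 29, 28, 29 and, under COX5B RNAi, 17. Over all 15 arrays they were 2, 1, 2 and 1, with a median half-width of 1.61 log2 units, so that fit leaves changes of 1 log2 unit possible for nearly every member.

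As a group the members lay close to the middle of all probe sets under ND-75 RNAi and lower under COX5B RNAi, where 27 of 29 were below 0 on its 1 array among the 10. The median change of the 29 over the 10 arrays was 0.02 under ND-75 RNAi, -0.10 under UQCR-14 RNAi, -0.26 under COX5B RNAi and -0.10 under ATPsynCf6 RNAi, where the median of all 10340 was -0.03, -0.03, 0.02 and -0.01. Below 0 were 12, 19, 27 and 21 of the 29, beside 54.6%, 53.4%, 47.7% and 51% of all probe sets. With array weights the medians were -0.04, -0.14, -0.25 and -0.13, and those of all probe sets were -0.01, -0.02, -0.01 and 0.00. The 4 comparisons share their control arrays, so they are not independent of each other.

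Members that separated the groups without overlap lay below control. Of the 29, 5 were below both control arrays on all 8 RNAi arrays of the 10 (Prosalpha5, Prosbeta4, Rpn7, Rpn8 and Rpn13R), where 6.03% of all probe sets were, and 0 were above both, where 4.05% were. With 3 arrays against 3, Prosalpha5 lay below all controls under ND-75 RNAi (background 4.13%). Rpt2, Rpn3 and Rpn8 did under COX5B RNAi (4.41%), and Prosalpha5, Prosbeta4 and Rpn13 under ATPsynCf6 RNAi (6.26%). No member did under UQCR-14 RNAi (3.8%). None lay above all controls in any group, where 3.54% of all probe sets did under ND-75 RNAi, 3.37% under UQCR-14 RNAi, 2.99% under COX5B RNAi and 8.95% under ATPsynCf6 RNAi.

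The members that lay below the controls read as follows. Prosalpha5, of the outer ring, had 3868, 3059 and 4046 under ND-75 RNAi, 3729, 3276 and 6279 under UQCR-14 RNAi, 266, 3569.8 and 5406 under COX5B RNAi, 3969, 3465 and 3862 under ATPsynCf6 RNAi, and 4088, 4158 and 5838 in control larvae. Rpn7, of the lid, had 3404, 3141 and 2844 under ND-75 RNAi, 3268, 3059 and 2315 under UQCR-14 RNAi, 94.8, 2982 and 2451 under COX5B RNAi, 2888, 2834 and 2973 under ATPsynCf6 RNAi, and 3568, 3426 and 2602 in control larvae. Neither was called: the pooled changes over the 10 arrays were -0.21 (adjusted p = 0.414) for Prosalpha5 and -0.18 (adjusted p = 0.366) for Rpn7.

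**Figure D3:**
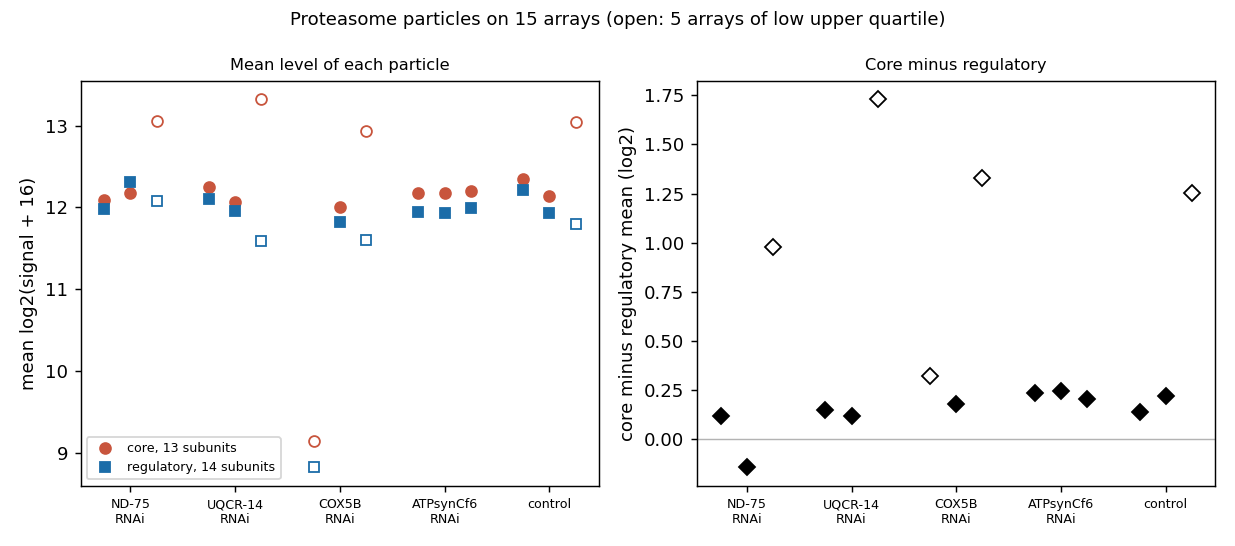
Left, mean log2(signal + 16) of the 13 core and the 14 regulatory subunits on each array, by group; right, the core minus the regulatory mean. Open symbols are the 5 arrays of low upper quartile. On the 10 arrays the difference is between -0.145 and 0.244, and on the 4 arrays numbered 3 outside ATPsynCf6 RNAi between 0.978 and 1.73.

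The core was then set against the regulatory particle. On the 10 arrays the mean of the 13 core subunits reached 12.35 at most and that of the 14 regulatory subunits 12.32 on the log2 scale. As signals of different probe sets are not on a common scale, what can be read is how the gap between them moves from array to array. It was 0.114, -0.145 and 0.978 under ND-75 RNAi, 0.147, 0.114 and 1.73 under UQCR-14 RNAi, 0.318, 0.175 and 1.33 under COX5B RNAi, 0.234, 0.244 and 0.204 under ATPsynCf6 RNAi, and 0.135, 0.218 and 1.26 in control larvae. The gap was wide on the arrays numbered 3, in control as in 3 RNAi groups, and not on those of ATPsynCf6 RNAi.

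Over all 15 arrays the gap differed between RNAi and control by less than its SD in control, which includes the wide gap of control 3. RNAi minus control it was -0.22 under ND-75 RNAi, 0.13 under UQCR-14 RNAi, 0.07 under COX5B RNAi and -0.31 under ATPsynCf6 RNAi over all 15 arrays, where its SD within a group of 3 was 0.59, 0.92, 0.63, 0.02 and, in control, 0.62. Over the 10 arrays these differences were -0.19, -0.05, -0.00 and 0.05. Both ND-75 RNAi arrays then lay below the 2 control arrays, whose gaps were 0.135 and 0.218. The -0.19 of ND-75 RNAi includes array ND-75 RNAi 2, whose gap of -0.145 was the lowest of all 15 and whose actin ratio was 37.4, beside 0.114 and 3.79 on ND-75 RNAi 1. The part of RNA integrity in this value was not tested.

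The shift on the 4 arrays numbered 3 is given below with the 3 RNAi groups in the order used so far and control last. Against their group's other arrays (COX5B RNAi 3 against COX5B RNAi 2), core subunits were higher: 13 of 13 under ND-75 RNAi, 12 under UQCR-14 RNAi, 12 under COX5B RNAi and 13 in control, with median shifts of 0.91, 1.20, 0.91 and 0.81. Beta subunits moved further than alpha subunits, with medians of 1.26, 1.68, 1.25 and 1.24 against 0.74, 0.86, 0.66 and 0.60. Prosbeta5 was the highest in each, at 2.06, 2.53, 2.00 and, in control, 1.67. Regulatory subunits lay mostly the other way, with medians of -0.14, -0.48, -0.27 and -0.24 and 9, 11, 10 and 11 of the 14 below 0.

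The division was not clean by particle. Rpn1 stood at -1.04, -1.80, -1.34 and -1.38 against its group's other arrays, Rpn2 at -0.68, -1.84, -0.87 and -1.15, and Rpn6, a lid scaffold, at -0.40, -1.85, -0.81 and -0.97. Rpn12, a lid subunit, lay higher by 1.30, 1.75, 1.06 and 1.34, and Rpn13 by 0.74, 1.01, 0.58 and 0.40, in the same order. Of the core, Prosalpha4 stood at 0.11, 0.27, -0.02 and 0.12, and Prosbeta2 at 0.40 and 0.49 under ND-75 and COX5B RNAi but -0.01 under UQCR-14 RNAi and 0.02 in control. On ATPsynCf6 RNAi 3 the medians were 0.01 for the core and 0.05 for the regulatory particle. All probe sets together shifted by -0.15, -0.36, -0.23 and -0.21 in the 4 groups, and by 0.01 under ATPsynCf6 RNAi.

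**Figure D4:**
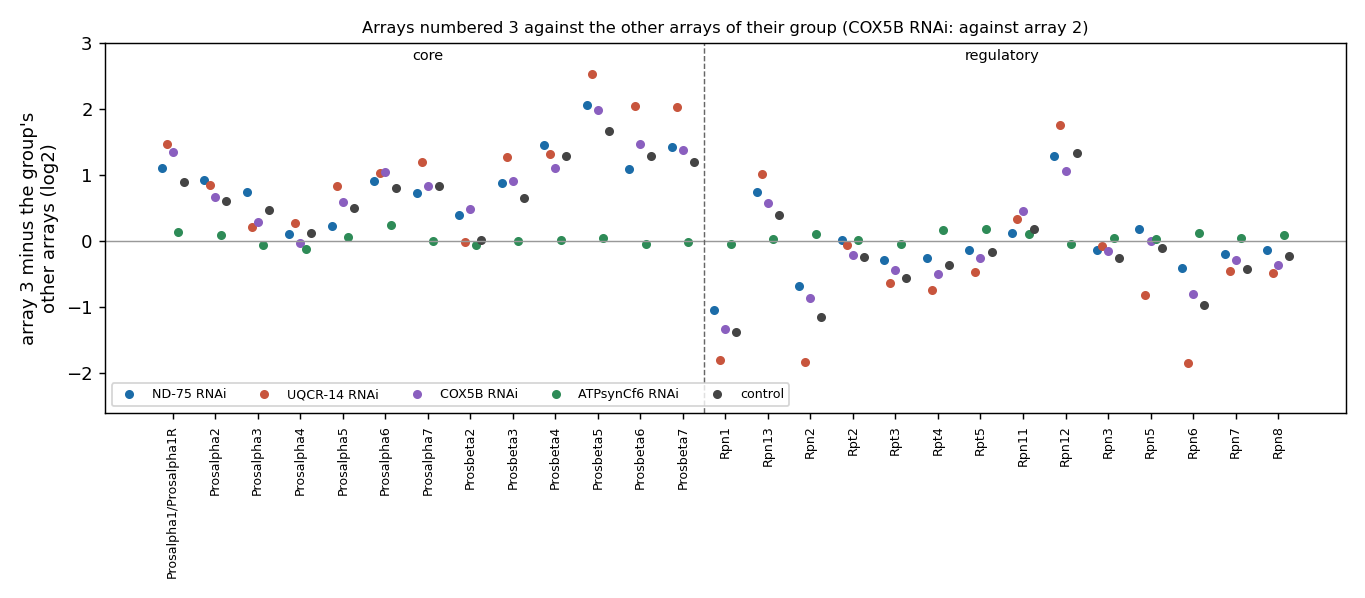
For each core (left of the dashed line) and regulatory subunit, the log2 difference between array 3 and the other arrays of its group, 1 point a group. Prosbeta5 is highest, at 1.67 to 2.53, and Rpn1, Rpn2 and Rpn6 are lowest in the 4 groups other than ATPsynCf6 RNAi, whose points stay near 0.

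Array COX5B RNAi 1 showed another pattern. Against COX5B RNAi 2, 28 of the 29 members were lower, with a median of -2.76 where all probe sets had -0.99. The core (median -2.76) and the regulatory particle (-2.91) lay alike. Rpn1 was the lowest at -6.24, with Rpt4 at -5.04, Rpn3 at -4.81 and Rpn7 at -4.76, while Rpn8 stood at -0.83 and Rpn11 at 0.62. Over 15 arrays, this one included, the median change of COX5B RNAi was -1.13 (29 of 29 below 0, all probe sets -0.32), against -0.26 over the 10 arrays. Its weight in the weighted fit was 0.0266, the lowest of the 15, and its actin ratio of 70.1 the highest, and the part of RNA integrity was not tested.

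Genes that build, control and serve the proteasome were taken from 8 lists. Over the 10 arrays 4.59% of all probe sets were called under UQCR-14 RNAi, 3.22% under ATPsynCf6 RNAi and 3.12% for the mean. With array weights these shares were 4.47%, 6.91% and 3.99%. Of 5 assembly and activator genes, 1 rose and 0 fell under UQCR-14 RNAi, under ATPsynCf6 RNAi and for the mean of the 4 groups, with array weights and over the 10 arrays alike, and 0 were called under ND-75 RNAi, under COX5B RNAi or over 15 arrays. The gene was Pomp, a chaperone that helps the core particle to mature and is degraded by it in yeast. Its signals were 5265, 5932 and 6090.1 under ND-75 RNAi, 9927, 8404 and 13451 under UQCR-14 RNAi, 10210.3, 6961 and 10634 under COX5B RNAi, 7309.9, 7937 and 8464 under ATPsynCf6 RNAi, and 5431, 4548 and 6557 in control larvae. All 3 arrays of UQCR-14, COX5B and ATPsynCf6 RNAi lay above all 3 controls, the 5 arrays included, and ND-75 RNAi overlapped them. The F test among the 4 RNAi groups did not pass (adjusted p = 0.0827 over the 10 arrays).

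The change of Pomp over the 10 arrays was 0.88 (SE 0.16, limma adjusted p = 0.0122) under UQCR-14 RNAi, 0.66 (SE 0.15, adjusted p = 0.0314) under ATPsynCf6 RNAi, 0.48 (adjusted p = 0.335) under COX5B RNAi and 0.17 (adjusted p = 0.705) under ND-75 RNAi. With array weights it was 0.81 (SE 0.17, adjusted p = 0.0108) under UQCR-14 RNAi and 0.63 (SE 0.13, adjusted p = 0.00502) under ATPsynCf6 RNAi, and over 15 arrays 0.93 and 0.53, not called. Leaving out 1 of the 10 arrays ended the UQCR-14 RNAi call without UQCR-14 RNAi 1 (0.76, adjusted p = 0.128) or control 2 (0.75, adjusted p = 0.0913). The ATPsynCf6 RNAi call ended without any 1 of its own arrays or of the 2 controls, at 0.54 to 0.79 over the 9 fits, and also without the filter (adjusted p = 0.0580) or with median centring (0.0918). For the mean of the 4 groups it was 0.55 (adjusted p = 0.0417), and this call ended in 7 of the 9 fits (up to 0.381), without the filter (0.0790) and with median centring (0.101). In the pairs Pomp differed by 0.87, 0.88 and 1.03 under UQCR-14 RNAi, but with the block and without COX5B RNAi 1 that change was not called (0.93, adjusted p = 0.0873).

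**Figure D5:**
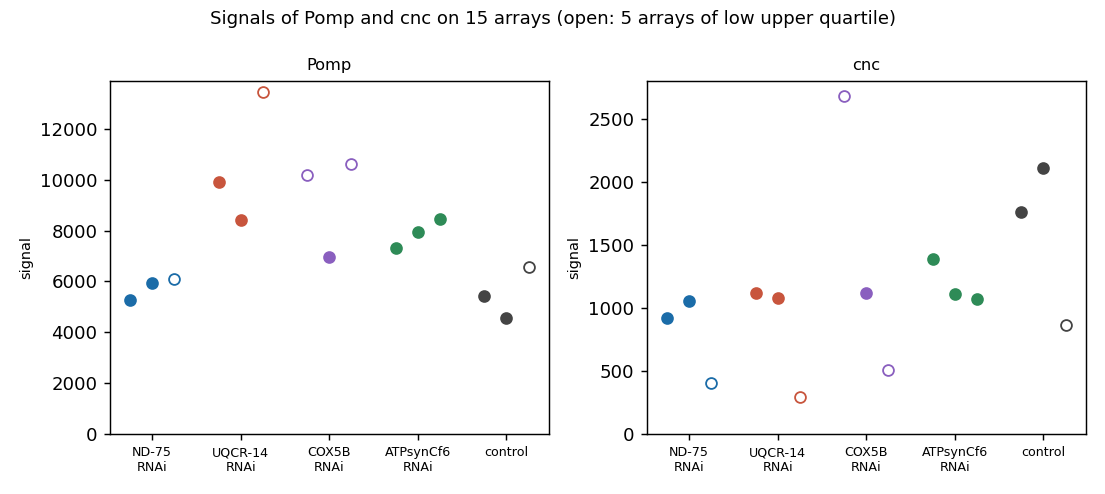
Signals of Pomp, the core's maturation chaperone, and cnc, a transcription factor for proteasome genes, on each array by group. Filled points are the 10 arrays, open points the 5 of low upper quartile. Pomp lies above every control in UQCR-14, COX5B and ATPsynCf6 RNAi, and cnc below both filled controls on all 8 filled RNAi points.

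Of 6 genes for the transcription of proteasome genes, 1 fell and 0 rose in ND-75, UQCR-14 and ATPsynCf6 RNAi and for the mean, with array weights and over the 10 arrays. All probe sets over the 10 arrays were called at 1.69%, 4.59%, 3.22% and 3.12% in these, in that order. The gene that fell was cnc, the fly member of the Nrf family, whose CncC form drives proteasome and antioxidant genes. Its signals were 922, 1055 and 405 under ND-75 RNAi, 1120.5, 1083 and 293 under UQCR-14 RNAi, 2686, 1118 and 507 under COX5B RNAi, 1389.6, 1114 and 1072 under ATPsynCf6 RNAi, and 1766, 2116 and 866 in control larvae, so that over 15 arrays every group overlapped control. Pair by pair, the difference in cnc was below 0 in all 3 pairs under ND-75 RNAi (-0.93, -0.99 and -1.07) and under UQCR-14 RNAi (-0.65, -0.96 and -1.51), and in 2 of 3 under COX5B RNAi (0.60, -0.91 and -0.75). Over the 10 arrays its change was -0.96 (limma adjusted p = 0.00550) under ND-75 RNAi, -0.80 (0.0117) under UQCR-14 RNAi, -0.78 (0.0561) under COX5B RNAi, -0.70 (0.0151) under ATPsynCf6 RNAi and -0.81 (SE 0.12, 0.00268) for the mean. Over 15 arrays it was -0.99, -1.04, -0.35 and -0.32 in the 4 groups, none called. With the replicate block and without COX5B RNAi 1 it was -0.99 (adjusted p = 0.103) under ND-75 RNAi and -1.04 (0.0704) under UQCR-14 RNAi. A second, dim cnc probe set lay at 0.312 to 36.8. That probe set was above all 3 controls on 2 arrays each of ND-75, UQCR-14 and COX5B RNAi. It was so on 1 array of ATPsynCf6 RNAi, and below all 3 controls on 0 arrays of any group.

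Control 2 bore on each of these cnc calls. Without it over the 10 arrays the change was -0.83 (adjusted p = 0.0867) under ND-75 RNAi, -0.67 (0.116) under UQCR-14 RNAi, -0.57 (0.146) under ATPsynCf6 RNAi and -0.68 (0.0866) for the mean. The UQCR-14 RNAi call also ended without either of its 2 arrays, and that of ATPsynCf6 RNAi without ATPsynCf6 RNAi 2 or 3 or control 1.

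Elsewhere in the pathway few genes passed the test, all with array weights or over the 10 arrays and none over 15. The share of all probe sets called under UQCR-14 RNAi was 4.59% over the 10 arrays and 4.47% with array weights. Of 15 genes of ubiquitin supply and activation, 1 fell under UQCR-14 RNAi: Ubc7, a conjugating enzyme of endoplasmic reticulum quality control, read 747, 805 and 1045 there and 1255, 1278 and 1353 in control larvae (change -0.70, SE 0.12, limma adjusted p = 0.00645 over the 10 arrays). Its call ended without UQCR-14 RNAi 1 (adjusted p = 0.0751) or control 2 (0.0589). Of 12 genes of SCF and cullin ligases, 1 rose and 1 fell under UQCR-14 RNAi over the 10 arrays. SkpB, a Skp-type adaptor, read 93.8, 75.9 and 240.5 under UQCR-14 RNAi and 17.0, 23.8 and 33.7 in control larvae, near the array median (1.47, adjusted p = 0.0157). This change depends on the constant added to the signals, being 0.82 after adding 64 and 2.01 after adding 1. Roc1b, a RING subunit, read 717, 967 and 399 under UQCR-14 RNAi and 1213, 1424 and 643 in control larvae (-0.65, adjusted p = 0.0452), and was not called with array weights (0.156).

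SkpB was also called with array weights (1.47, limma adjusted p = 0.00110), and its 3 UQCR-14 RNAi arrays lay above all 3 controls. Over the 10 arrays both ligase calls were lost when certain single arrays were left out. That of SkpB ended without either UQCR-14 RNAi array or either control among the 10 (adjusted p up to 0.127), and that of Roc1b without any of 7 arrays, namely those 4 and the 3 of ATPsynCf6 RNAi (up to 0.317). Of 13 autophagy genes, 1 fell under UQCR-14 RNAi and 1 under ATPsynCf6 RNAi, beside 4.59% and 3.22% of all probe sets called over the 10 arrays. Atg17, a scaffold of the Atg1 kinase complex, read 259, 200.4 and 22.7 under UQCR-14 RNAi and 433, 401 and 187 in control larvae (-0.83, adjusted p = 0.0249), and its call ended without either UQCR-14 RNAi array or either control among the 10. Atg9, a membrane protein of the growing autophagosome, read 253, 271 and 279 under ATPsynCf6 RNAi and 486, 478 and 188 in control larvae (-0.81, adjusted p = 0.0129), and its call ended without control 1 (0.151) or control 2 (0.0818). For the mean of the 4 groups Atg17 was called with array weights (-0.69, limma adjusted p = 0.0265) but not over the 10 arrays (-0.59, 0.0505). Over 15 arrays the change of Atg17 was -1.35 under UQCR-14 RNAi and that of Atg9 -0.38 under ATPsynCf6 RNAi, neither called. With the replicate block, over 12 arrays or without COX5B RNAi 1, none of Ubc7, SkpB, Roc1b and Atg17 was called under UQCR-14 RNAi.

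In the other lists 0 genes were called in any comparison of the 3 fits: 8 genes of the COP9 signalosome, which shares its architecture with the lid, 6 of the TER94 (p97) segregase and its cofactors, and 6 proteasome-bound deubiquitinases and shuttles. Over the 10 arrays the median change for the mean of the 4 groups was -0.02, -0.05 and -0.12 in these, beside -0.01 for all probe sets. Of all 10340 probe sets, 1454 to 2180 a contrast had an unadjusted p under 0.05 in limma over the 10 arrays, COX5B RNAi aside. With array weights 534 to 2067 did, and over 15 arrays 134 to 578. The passes in the lists are instead summed over all 5 contrasts, COX5B RNAi included. That makes 40 tests for COP9, 30 for p97 and 30 for deubiquitinase genes in each fit. At an unadjusted p under 0.05 in limma, the 5 contrasts gave 0, 3 and 5 passes in COP9, p97 and deubiquitinase genes over the 10 arrays, 0, 1 and 0 with array weights, and 1, 0 and 0 over 15 arrays.

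Some markers of cell types were called under UQCR-14 and ATPsynCf6 RNAi and for the mean. Over the 10 arrays 4.59% of all probe sets were called under UQCR-14 RNAi and 3.12% for the mean. Of 6 neuron markers, nSyb was called, the gene whose promoter gives the driver its name. It fell under UQCR-14 RNAi (-0.95, limma adjusted p = 0.0168) and for the mean (-0.76, 0.0182), both over the 10 arrays. Under COX5B RNAi, with 1 array among the 10, futsch stood at -0.93 and its 2 other probe sets at -0.28 and -0.72. With array weights this futsch change was -0.92 (limma adjusted p = 0.542), not called. Over 15 arrays 0 neuron markers were called. Summed signals of the 6 were 13280.1 to 19598 under ND-75 RNAi, 3137 to 16281 under UQCR-14 RNAi, 9725 to 23417 under COX5B RNAi, 16702 to 18426 under ATPsynCf6 RNAi and 9698 to 20751 in control larvae, with brp above the array median on 13 of 15 arrays and the rest on 15. Of 7 salivary glue genes tested, 4 rose under UQCR-14 RNAi (Sgs4, Sgs5, Sgs7 and Sgs8, by 2.27 to 2.74 over the 10 arrays). Over 15 arrays 0 glue genes were called, and each of these 4 overlapped control. The 9 measured summed to 972 to 7240 under ND-75 RNAi, 3542 to 17732 under UQCR-14 RNAi, 2329 to 10958 under COX5B RNAi, 1040 to 1789 under ATPsynCf6 RNAi and 896 to 12758 in control larvae, with ng1 above the median on 0 arrays, ng2 on 2 and Sgs1 on 3. Of 5 glia, 6 neuroblast, 4 fat body, 5 muscle and 6 testis markers tested, 0 were called over the 10 arrays or over 15. At an unadjusted p under 0.05 the 10 arrays gave 4, 4, 2, 2 and 4 of these genes in at least 1 contrast. Of all 10340 probe sets, 1454 to 2180 passed at that p in a single contrast over the 10 arrays, COX5B RNAi aside. The share of all probe sets that passed in at least 1 contrast was not computed. With array weights the glial nrv2 rose under UQCR-14 RNAi (0.58) and ATPsynCf6 RNAi (0.43), and the testis list's mia and twe under ATPsynCf6 RNAi. The part of cell makeup in the values of Prosbeta4, Pomp, cnc and the genes of UQCR-14 RNAi was not tested.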

How the data were processed

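RNA of 15 samples was labelled and hybridised to 1-colour Affymetrix Drosophila arrays, 1 array a sample. The authors deposited signals on a linear intensity scale, made with MAS5 in Affymetrix Expression Console, with Transcriptome Analysis Console also named, per the submitters' processing notes. Of 18952 probe sets, 183 control probe sets were left out. Gene symbols come from the platform's 2016 annotation. Signals were used as deposited: 16 was added, log2 taken, and the 10340 probe sets above the array's median on at least 3 of 15 arrays were fitted with limma 3.58.1 in R 4.3.3 (group means, eBayes with trend, Benjamini-Hochberg over all 10340). The script was tested on simulated data. The same fit was made with array weights and over 10 arrays. Deviations of same-numbered arrays from their group means correlated at 0.167 to 0.852 in the 18 pairs that leave out ATPsynCf6 RNAi, and at -0.362 to 0.149 in the 12 with it. The numbers, which come from the labels, were thus taken as pairs in the other 4 groups, and fits with the number as a block were added after the data had been seen. The labels give triplicate RNA samples per genotype, so p-values measure the spread among these. Signals on all arrays are given for members picked by role (Prosbeta1, Prosbeta2, Prosbeta5, Prosalpha7, Rpt2, Rpn1, Rpn2, Rpn10, Rpn11 and Rpn13, of which Prosbeta1 and Rpn10 have no listed probe set), for members called in any of the 3 fits, and for the highest and lowest change in each RNAi contrast with array weights. Of the other lists, called genes are named, up to 4 a list by size of change. Rpn7, Rpn8 and Prosalpha5 were named after their values were seen. Members and lists were chosen with earlier results of these data known. Protein and promoter sequences were not used here. The number of arrays limits the precision.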

Additional observations from a re-analysis of the deposited data

Results flagged for a closer look

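None of the 29 proteasome members differed among the 4 RNAi groups by the F test. Some genes of the surrounding lists did, in limma with adjusted p-values over all 10340 probe sets. Ubc7 gave 0.03335 with array weights and 0.01127 over the 10 arrays: it was low in UQCR-14 RNAi (746.8, 805 and 1045), where ATPsynCf6 RNAi had 1214, 1330.0 and 1192 and control 1255, 1278 and 1353. SkpB gave 0.006894 with array weights and 0.02833 over the 10 arrays, being high in UQCR-14 RNAi at low signals. Of the glue genes, Sgs4 gave 0.016 and Sgs5 0.0352 with array weights, and over the 10 arrays both missed the threshold (0.05285 and 0.07891). The neuron gene futsch gave 0.01898 over the 10 arrays and 0.1374 with array weights. Dixon's test was not applied, as each group has 3 arrays.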

How the results depend on the processing

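The count of members called was 0 over 15 arrays in each RNAi group, for the mean of the 4 and in the F test. It stayed 0 after adding 1 or 64, without the filter, with a filter at the 60th percentile, with median centring, with quantile normalization, with a term for the 4 arrays numbered 3, and without any 1 array (0 to 0 in each of the 6 results). Without the 5 arrays it was 1 for the mean of the 4 groups. With quantile normalization and array weights together it was 3 in UQCR-14 RNAi (Prosbeta4, Prosbeta6 and Rpn13R, where 15.2% of all probe sets were called), 1 in ATPsynCf6 RNAi (7.14%) and 1 for the mean (8.93%), both Prosbeta4. The cause was not tested. Over the 10 arrays the Prosbeta4 call was lost after adding 1 (adjusted p = 0.0506), without the filter (0.0949) or with median centring (0.161). The Prosbeta4 call was kept in 2 of these 5 settings, after adding 64 and with quantile normalization. Adding a replicate block called 0 members over all 15 arrays and over the 12 without ATPsynCf6 RNAi. It also called 0 over 11, where COX5B RNAi 1 was left out too. The core minus regulatory difference ran from -0.55 to 0.14 in ND-75 RNAi, -0.41 to 0.49 in UQCR-14 RNAi, -0.29 to 0.43 in COX5B RNAi and -0.51 to 0.05 in ATPsynCf6 RNAi when 1 array was left out. Each value moved from that over all 15 arrays by less than the SD between arrays, pooled over the RNAi group and control. Median centring moved the median of all probe sets in COX5B RNAi to 0.26, against -0.32 without it, and in UQCR-14 RNAi to 0.12, against -0.07. The core median in UQCR-14 RNAi was 0.13 over 15 arrays and -0.18 with quantile normalization, and in ATPsynCf6 RNAi -0.26 and, with the term for 4 arrays, 0.13. Of 975 values of the 13 members named by the rule with 1 array left out, 59 turned sign and 0 were called. Over the other settings 75 of 710 turned sign and 5 were called, 4 of Prosbeta4 and 1 of Rpn13R. Over the 10 arrays Pomp was called under COX5B RNAi with quantile normalization (0.62, adjusted p = 0.00744). Using all probe sets of a member was not run, as each has 1.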
